A study of Mus musculus with 30 samples.

Results

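Acr, Acrv1, Spaca1, Zpbp, Zpbp2, Zp3r, Spam1 and Izumo1 encode proteins of the acrosome and of fertilisation, and they were taken as a group of 8 genes by matching these symbols in the adult testis count table of 55566 features. Each symbol matched 1 feature, and all 8 were tested. The series measured RNA in mouse testis with altered Ythdc2, the gene of a helicase whose YTH domain can bind methylated adenosine in RNA, known for its role in germ cells at the start of meiosis. All 30 libraries are labelled C57BL/6J. The adult groups were 3 libraries of mice homozygous for the WLA allele (WLA/WLA) and 3 of heterozygous mice (WLA/+), each with animals of 20 and 24 weeks; both genotypes therefore carry the WLA allele, and no adult wild-type testis was analysed here. The juvenile groups were 3 homozygous knockouts (-/-) and 3 wild types (+/+) at postnatal day 8, and 3 homozygous knockouts against 2 heterozygotes (+/-) and 1 wild type at day 10. Each juvenile animal gave a library of total RNA and one of ribosome footprints, the pieces of mRNA covered by ribosomes.

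The acrosome is a secretory vesicle that spreads as a cap over the nucleus of the spermatid and is released when sperm meet the egg. Its enzymes and matrix proteins loosen the coats of the egg, the cumulus cells with their hyaluronan matrix and the zona pellucida. After the acrosome is released, proteins of its inner membrane become exposed on the sperm head, and there they take part in fusion with the egg. In mouse testis most of these genes are transcribed in round spermatids, some already in spermatocytes, so that adult testis holds their transcripts in plenty, while the testis of the first days after birth holds no spermatids.

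The genes lie on 7 chromosomes of GRCm38.p6, the assembly also called mm10. Izumo1 runs from 45621811 to 45627242 on chromosome 7, Acrv1 from 36693220 to 36698845 on chromosome 9, Spaca1 from 34024872 to 34050067 on chromosome 4 and Acr from 89568326 to 89578853 on chromosome 15. Zpbp (11279624 to 11464223) and Zpbp2 (98551097 to 98558665) lie far apart on chromosome 11. Zp3r runs from 130547110 to 130629634 on chromosome 1 and Spam1 from 24791188 to 24801048 on chromosome 6. RefSeq places other genes within the spans of Zpbp and Zp3r, 6 in all, of which 2 were tested. Spata48, which overlaps Zpbp, had a mean of 75.1 CPM in WLA/WLA and 83.1 CPM in WLA/+ testis, and Gm16083, labelled antisense and overlapping Zp3r, had under 1 CPM in the mean of each group. How reads were counted, with or without strand, is not stated, so reads of overlapping genes may have been mixed.

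Promoter sequences of 7 of the 8 genes were matched by symbol in RefSeq (GRCm38.p6), and Acr had no entry. There were 8 windows for the 7 genes, since Spaca1 had a second one that begins at 34050068. The window of Zpbp, from 11462420 to 11462669 on the minus strand, lies within the gene span given above and not before it. The 250 bases before the transcription start are shown for the gene with the largest adult difference among the 8, for the gene of the acrosomal antigen SP-10 and for a gene whose window holds 2 half-sites. Capitals mark a full cAMP response element (TGACGTCA, the site of CREM, the activator of many spermatid genes) in Izumo1, the GT hexamer GTGTGT on either strand in Acrv1 and the half-site TGACG on either strand in Spaca1.
Izumo1 (chr7:45621561-45621810, plus strand): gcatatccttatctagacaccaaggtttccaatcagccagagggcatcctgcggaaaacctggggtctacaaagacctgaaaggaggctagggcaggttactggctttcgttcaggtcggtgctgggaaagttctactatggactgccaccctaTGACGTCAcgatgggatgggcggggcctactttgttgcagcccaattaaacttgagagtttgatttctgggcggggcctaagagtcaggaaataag
Acrv1 (chr9:36692970-36693219, plus strand): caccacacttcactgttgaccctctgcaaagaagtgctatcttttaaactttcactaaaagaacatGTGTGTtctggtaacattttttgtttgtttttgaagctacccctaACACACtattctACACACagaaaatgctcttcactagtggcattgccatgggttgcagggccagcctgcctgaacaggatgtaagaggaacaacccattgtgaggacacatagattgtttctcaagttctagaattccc
Spaca1 (chr4:34050066-34050315, minus strand): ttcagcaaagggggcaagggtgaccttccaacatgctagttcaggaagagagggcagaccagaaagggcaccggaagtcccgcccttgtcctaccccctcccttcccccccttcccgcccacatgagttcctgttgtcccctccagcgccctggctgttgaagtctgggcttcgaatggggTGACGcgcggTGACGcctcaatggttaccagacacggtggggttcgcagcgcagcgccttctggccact
The full element was found in Izumo1 alone of the 7 genes, beginning 96 bases before the start, and 1.55% of 32851 promoter windows of that length hold it. The half-site, which the full element contains on both strands, was found in 3 of the 7 genes, namely Izumo1, Spaca1 and Zpbp2, against 17.8% of all windows. The GT hexamer was found in Acrv1 alone, at 3 places that begin 184, 139 and 127 bases before the start, against 14.9% of all windows. The letters TATAAA on either strand were in none of the 7, against 12.4% of all windows. These are matches of letters and not measured binding sites.

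The adult comparison asks whether testis with 2 copies of the WLA allele differs from testis with 1. No gene of the 8 passed an adjusted p of 0.05 (edgeR's quasi-likelihood test, Benjamini-Hochberg over 22446 features). All 8 had log2 fold changes (WLA/WLA over WLA/+) below 0, from -0.25 for Izumo1 to -0.01 for Acr, with a median of -0.11. Izumo1 came closest to the threshold, with an adjusted p of 0.0687 by edgeR, and it passed in the authors' deposited table of DESeq2 results, with an adjusted p of 0.00843. Of all features there, 1.14% of the 17149 with an adjusted p passed, and 0.665% were lower in WLA/WLA testis. DESeq2 run as an alternative also called Izumo1 alone of the 8 (adjusted p 0.00741), against 0.971% of all features, and edgeR without a filter on low counts called Izumo1 and Zp3r (adjusted p 0.00166 and 0.0270), against 1.49%. Over all features tested in the edgeR fit 0.236% passed, 53 in number, and 32 of these were lower in WLA/WLA testis, which is 0.143%. At an unadjusted p under 0.05, 4 of the 8 genes lay below 0, namely Izumo1, Zp3r, Acrv1 and Zpbp, against 7.32% of all features. These differences are of mRNA in whole testis, where fewer cells of a type and less RNA per cell cannot be told apart.

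The adult libraries held from 33331987 to 43707798 counted reads, and the 8 genes took from 0.134% to 0.135% of them in WLA/WLA libraries, against 0.136% to 0.149% in WLA/+ libraries. The WLA/+ libraries differed more among themselves than the WLA/WLA libraries did, and WLA/+ library 1 the most. WLA/+ library 1 differed from WLA/+ libraries 2 and 3 by a chi-square of 10.0 and 9.05 per degree of freedom, where libraries 2 and 3 differed from each other by 6.35 and the WLA/WLA libraries among themselves by 1.79 to 3.98. Without it 1917 of 22910 features passed edgeR, or 8.37%, in place of 53, and 3.78% were lower in WLA/WLA testis. Of the 8 genes 4 then passed, all lower. Leaving out any other single library gave from 3 to 15 features and 0 of the 8 genes. Calls seen only without WLA/+ library 1 therefore rest on that omission. Ythdc2 itself had 35.8, 32.8 and 33.7 CPM in WLA/WLA testis, against 34.3, 35.8 and 29.9 CPM in WLA/+ testis; its juvenile level was not analysed here. Values without WLA/+ library 1 are therefore given for each of the 8 genes and for those of the other named genes whose call it changes. Transcript lengths were not used here, so levels of different genes are not ranked against each other; each value below is a CPM, the count scaled to the library's total as CPM with TMM factors.

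**Figure D1:**
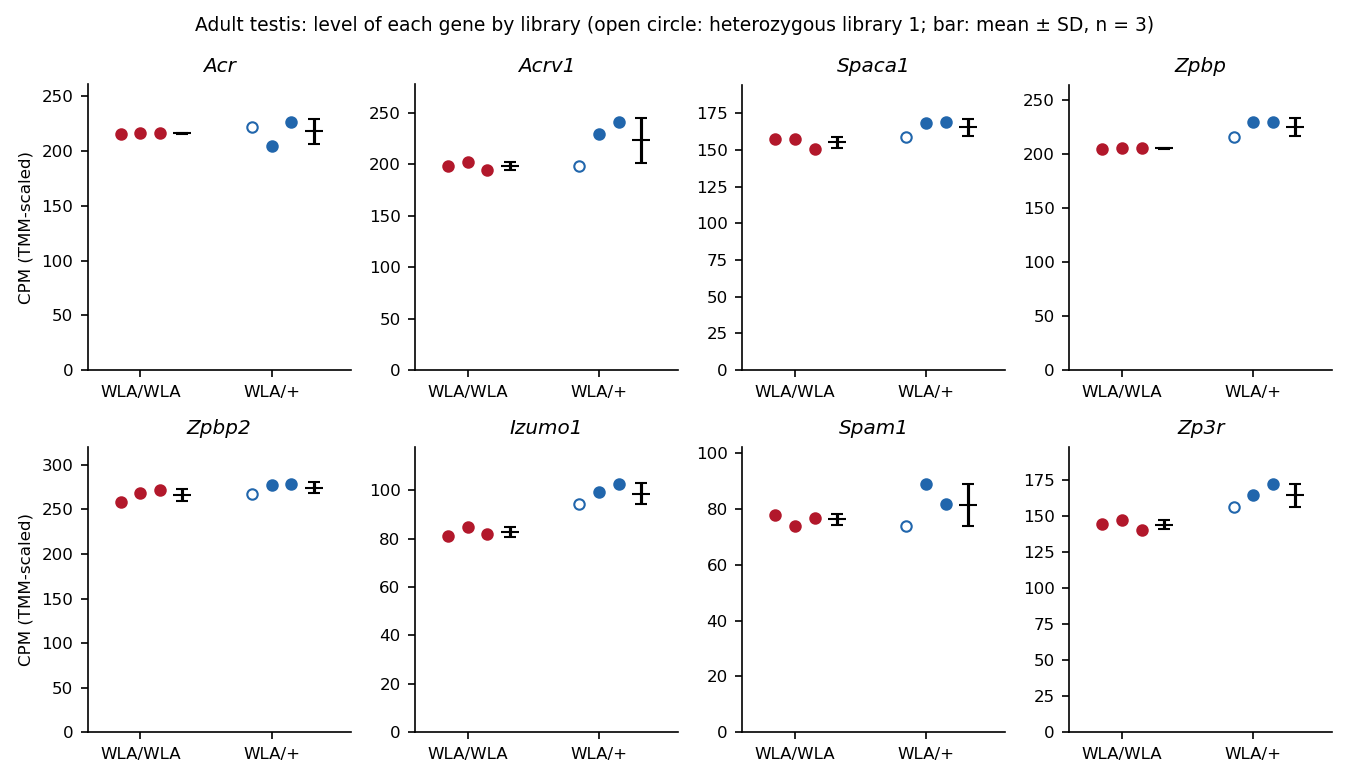
Level of the 8 genes in each adult library, in CPM (vertical axis, from 0), for WLA/WLA testis at the left and WLA/+ testis at the right of each panel; points are libraries, the open circle is WLA/+ library 1, and bars give the mean ± SD of 3 libraries. The WLA/WLA points of Izumo1 sit between 81.1 and 84.9 CPM, all below the WLA/+ points, while those of Acr sit among the WLA/+ points.

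Izumo1 encodes the sperm membrane protein that binds JUNO on the egg before fusion. It had 81.1, 84.9 and 82.0 CPM in WLA/WLA testis, against 94.1, 99.0 and 103 CPM in WLA/+ testis. The groups did not overlap, and the lowest WLA/+ library was WLA/+ library 1. The means were 82.7 ± 1.999 CPM in WLA/WLA and 98.5 ± 4.23 CPM in WLA/+ testis (SD, n = 3 each), a difference of -16.1% with a 95% interval from -22.1% to -9.63%. The log2 fold change was -0.25 ± 0.05 (SE). Without WLA/+ library 1 it was -0.29 ± 0.05, and Izumo1 then passed edgeR with an adjusted p of 0.00282. Leaving out any other library gave adjusted p-values from 0.195 to 0.469, and over every alternative run they went from 0.00166 to 0.469.

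Groups that do not overlap, with WLA/WLA below WLA/+, were seen for 4 of the 8 genes and for 10.3% of all features, or 16.4% of the 2154 features whose mean level lies between those of Spam1 (78.8 CPM) and Zpbp2 (270 CPM). The 4 genes were Izumo1, Zp3r, Zpbp and Spaca1. The opposite order, WLA/WLA above WLA/+, was seen for none of the 8 and for 8.99% of all features. Log2 fold changes below 0, found in 8 of 8 genes, were found in 48.5% of all features and in 57.6% of those in that range of levels, whose median was -0.01 with quartiles of -0.07 and 0.04. The 8 genes share the same 6 libraries and the same kind of cell, so they are not 8 separate observations.

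Zp3r encodes sp56, a protein of the acrosomal matrix that binds the zona pellucida in mouse. It had 144, 147 and 141 CPM in WLA/WLA testis, against 156, 165 and 172 CPM in WLA/+ testis. Every WLA/WLA library lay below every WLA/+ library. The log2 fold change was -0.19 ± 0.05 (SE), or -12.3% with a 95% interval from -18.5% to -5.63%, and the adjusted p 0.147 (edgeR). Without WLA/+ library 1 Zp3r passed, with a log2 fold change of -0.23 and an adjusted p of 0.00966.

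Spam1 encodes PH-20, a hyaluronidase held on the sperm surface by a lipid anchor that digests the matrix of the cumulus. Its levels were 77.7, 73.9 and 76.8 CPM in WLA/WLA testis, against 73.7, 88.8 and 81.7 CPM in WLA/+ testis. The groups overlapped, with the lowest value of all 6 in WLA/+ library 1. The log2 fold change was -0.10 ± 0.06 (SE; edgeR adjusted p 0.552), with a 95% interval of the difference from -15.1% to 3.06%. Without that library it was -0.16 (adjusted p 0.0635), and without WLA/+ library 2, the highest, it was -0.027 (adjusted p 0.900).

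Acrv1 encodes SP-10, a protein of the acrosomal matrix. It had 199, 203 and 195 CPM in WLA/WLA testis, against 199, 230 and 241 CPM in WLA/+ testis. WLA/+ libraries 2 and 3 were high, and WLA/+ library 1 lay within the range of the WLA/WLA libraries. The log2 fold change was -0.17 ± 0.06 (SE; edgeR adjusted p 0.297), and without that library -0.25 ± 0.05, where Acrv1 passed with an adjusted p of 0.00549. Without WLA/+ library 3, the highest, it was -0.10 (adjusted p 0.596). The WLA/WLA libraries had an SD of 3.90 CPM and the WLA/+ libraries a wider one of 21.99 CPM (n = 3 each).

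Zpbp and Zpbp2 encode related proteins of the acrosomal matrix, named for binding the zona pellucida, which in mouse are also needed for a well-shaped sperm head. Zpbp had 205.0, 205 and 206 CPM in WLA/WLA testis, against 216, 230 and 230.1 CPM in WLA/+ testis, with no overlap. Its log2 fold change was -0.13 ± 0.04 (SE; edgeR adjusted p 0.239), and without WLA/+ library 1 it was -0.17 with an adjusted p of 0.0334, past the threshold. Spata48, which overlaps Zpbp, had a log2 fold change of -0.15 (edgeR adjusted p 0.306). Zpbp2 had 258, 268 and 271 CPM in WLA/WLA testis, against 267, 277 and 278 CPM in WLA/+ testis. These groups overlapped, with a log2 fold change of -0.04 ± 0.04 (SE; edgeR adjusted p 0.690) and an interval of the difference from -9.10% to 3.43%. For Zpbp2 the log2 fold change was -0.064 without WLA/+ library 1 (adjusted p 0.425), -0.028 without WLA/+ library 3 and -0.018 without WLA/WLA library 1.

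Spaca1 encodes a protein of the acrosomal membrane that is needed to shape the acrosome in mouse. It had 158, 157 and 151 CPM in WLA/WLA testis, against 159, 169 and 169.3 CPM in WLA/+ testis. The groups did not overlap, but WLA/+ library 1 lay about 1 CPM above the highest WLA/WLA library. The log2 fold change was -0.09 ± 0.05 (SE; edgeR adjusted p 0.413), and -0.12 with an adjusted p of 0.113 without that library.

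Acr encodes acrosin, the serine protease of the acrosome. It had 216, 216.3 and 216.2 CPM in WLA/WLA testis, against 222, 204 and 227 CPM in WLA/+ testis. The WLA/WLA libraries lay between the WLA/+ libraries. Its log2 fold change was -0.01 ± 0.05 (SE; edgeR adjusted p 0.946), with a 95% interval of the difference from -7.67% to 6.68%, and its sign turned to 0.02 without WLA/+ library 3 and to 0.0020 without WLA/+ library 1.

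**Figure D2:**
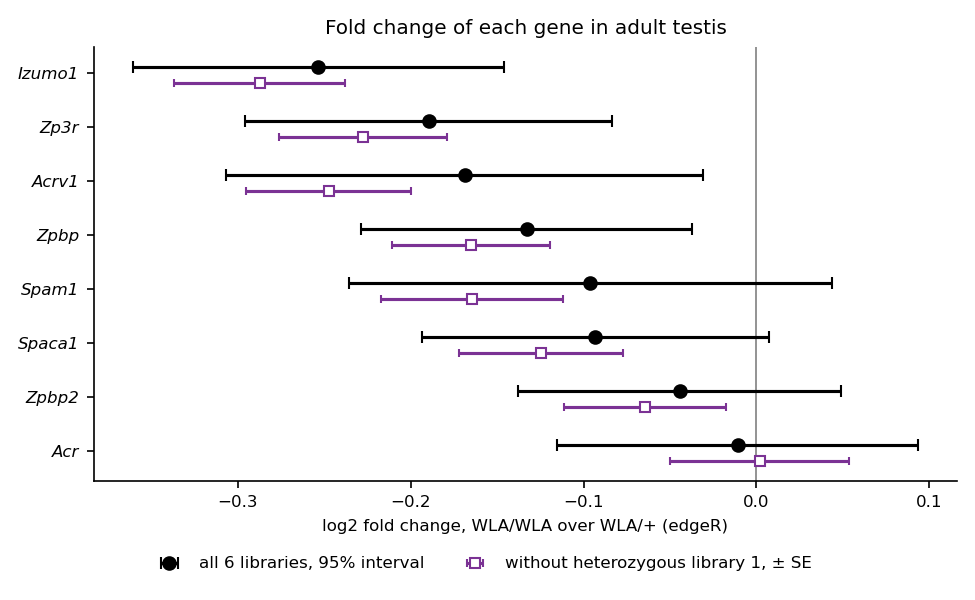
Log2 fold change (horizontal axis, WLA/WLA over WLA/+) of each of the 8 genes in adult testis; filled circles use all 6 libraries and their bars are 95% intervals from edgeR, and open squares leave out WLA/+ library 1 with bars of ± SE. The intervals of Izumo1, Zp3r, Acrv1 and Zpbp lie below 0 and those of the other 4 genes include 0.

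The share of each gene in the reads of the 8 genes was also compared between the groups. Of the reads of the 8 genes, Izumo1 took 6.06%, 6.26% and 6.13% in WLA/WLA libraries, against 6.79%, 6.77% and 6.83% in WLA/+ libraries. Its share thus differed between the groups by more than the spread in either, also in WLA/+ library 1. Zp3r took 10.8%, 10.9% and 10.5% in WLA/WLA, against 11.2%, 11.3% and 11.5% in WLA/+ libraries, again without overlap. Zpbp2 took more of these reads, with 19.3%, 19.8% and 20.3% in WLA/WLA, against 19.27%, 18.9% and 18.5% in WLA/+ libraries. For Zpbp2 the nearest libraries of the groups stood at 19.30% and 19.27%. The other 5 genes overlapped. Such shares were not computed for other sets of genes, so how often groups separate in this way is not known. These shares do not depend on how libraries are scaled, but they sum to 100%, so a smaller share of one gene means a larger share of others. The summed level of the 8 genes was 1339, 1355 and 1338 CPM in WLA/WLA testis, against 1386, 1462 and 1502 CPM in WLA/+ testis.

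Of 61 other gene symbols listed for acrosome and fertilisation, 60 were in the table and tested. Of these 60 genes 1 passed edgeR, Hyal6, lower in WLA/WLA testis, against 0.236% of all features. The other genes had a median log2 fold change of -0.06, with 48 of 60 below 0, against a median of 0.01 over all features. Without WLA/+ library 3 the median was -0.02 with 35 of 60 below 0. At an unadjusted p under 0.05, 13 lay below 0 and 2 above, against 7.32% of all features below 0 and 13.2% in either direction. Without WLA/+ library 1, 12 of the 60 passed, 10 lower and 2 higher, against 8.37% of all features. Spaca7, Lyzl6 and Ly6k were among these 12 and are not described further. Leaving out any other single library called either none of the 60 or Hyal6 alone.

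**Figure D3:**
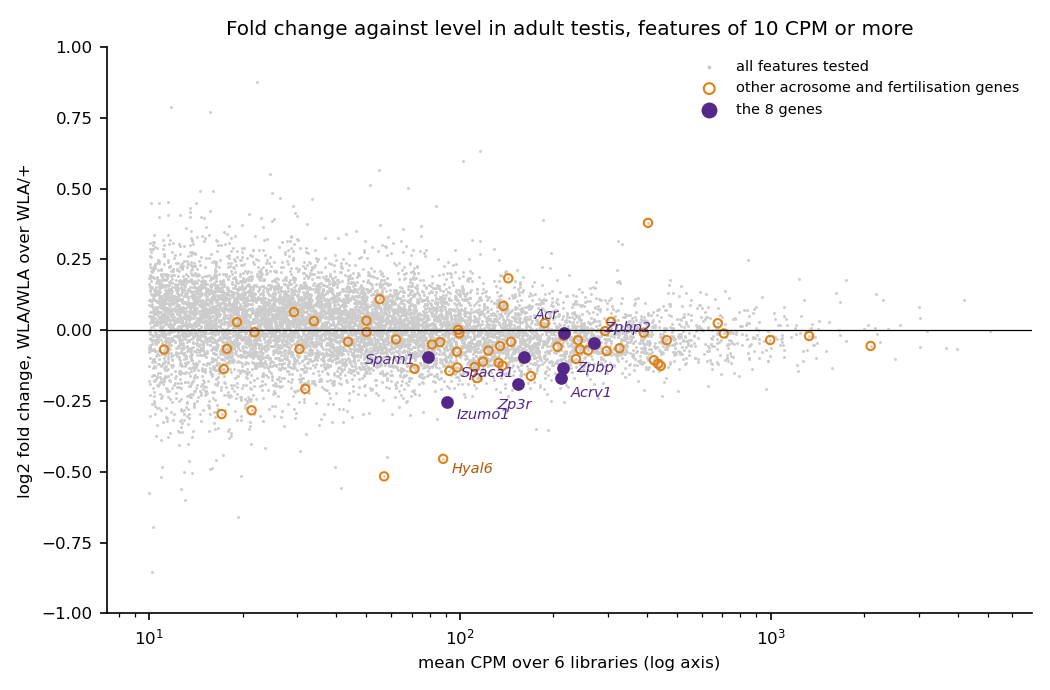
Log2 fold change (vertical axis, WLA/WLA over WLA/+) against the mean level over 6 adult libraries (horizontal log axis, CPM) for the 9643 features with a mean of 10 CPM or more; grey points are all such features, open orange circles the 60 other acrosome and fertilisation genes, and filled purple circles the 8 genes. The 8 genes lie at or below 0 within the cloud of features, and Hyal6 lies at -0.45.

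Hyal6 encodes a hyaluronidase-like protein related to PH-20, and it lies near Spam1 on chromosome 6, from 24733245 to 24745452. It had 70.2, 74.2 and 79.3 CPM in WLA/WLA testis, against 104, 106 and 96.6 CPM in WLA/+ testis. All WLA/WLA libraries were well below all WLA/+ libraries, and WLA/+ library 1 lay between the other WLA/+ libraries. The log2 fold change was -0.45 ± 0.06 (SE; edgeR adjusted p 0.0105). Leaving out WLA/WLA library 1, WLA/WLA library 2 or WLA/+ library 2 ended the call, with edgeR adjusted p-values of 0.125, 0.157 and 0.0680, while the log2 fold change stayed between -0.49 and -0.41 over all 6 omissions. Hyal5, another gene of this cluster, had 133, 135 and 126 CPM in WLA/WLA testis, against 139, 146 and 144 CPM in WLA/+ testis. It did not pass (log2 fold change -0.13, edgeR adjusted p 0.294). Without WLA/+ library 1 the log2 fold change was -0.44 for Hyal6 (edgeR adjusted p 0.00047) and -0.15 for Hyal5 (edgeR adjusted p 0.0743). Related copies such as these can share reads.

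The list of zona interaction, proteases and hyaluronidases had 14 genes, of which Hyal6 passed and 13 lay below 0, with a median log2 fold change of -0.11. Besides Hyal6 its largest values at moderate or high level were Pcsk4, a proprotein convertase of the acrosome, at 0.18 (edgeR adjusted p 0.316), and Pkdrej, a polycystin-like sperm membrane protein, at -0.14 (edgeR adjusted p 0.284). Pcsk4 passed without WLA/+ library 1 (0.24, edgeR adjusted p 0.0295) and without the low-count filter (edgeR adjusted p 0.0482). Zan, the gene of the zona-binding protein zonadhesin, was singled out after its values were seen. It had 35.2, 55.6 and 50.2 CPM in WLA/WLA testis, against 77.1, 63.4 and 60.7 CPM in WLA/+ testis, with a log2 fold change of -0.52 ± 0.14 (SE; edgeR adjusted p 0.158). Zan passed without WLA/+ library 1 (-0.41, edgeR adjusted p 0.0374) and without the low-count filter (edgeR adjusted p 3.11e-13). Without the filter its log2 fold change stayed at -0.52 while its SE fell from 0.136 to 0.062. The smaller p-value thus did not come from a larger difference. How much of it came from the smaller SE was not tested.

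The list of fusion and adhesion had 13 genes tested, none past the threshold with all 6 libraries and 13 of 13 below 0, with a median of -0.07. Izumo3, a relative of Izumo1 needed for the acrosome in mouse, stood at -0.13 (edgeR adjusted p 0.319), and Dcst2, a sperm membrane protein of fusion, at -0.08 (edgeR adjusted p 0.519). Izumo3 passed without WLA/+ library 1 (-0.18, edgeR adjusted p 0.0265). The fusion factor gene Tmem95 had 14.6, 16.2 and 15.3 CPM in WLA/WLA testis, against 17.8, 18.9 and 19.8 CPM in WLA/+ testis. Tmem81, whose product joins IZUMO1 in a complex on sperm, had 19.0, 19.2 and 19.7 CPM in WLA/WLA testis, against 20.9, 24.1 and 25.4 CPM in WLA/+ testis. Neither overlapped and neither passed with all 6 libraries, with log2 fold changes of -0.30 (edgeR adjusted p 0.133) and -0.28 (edgeR adjusted p 0.177). Both passed without WLA/+ library 1, Tmem95 at -0.34 (edgeR adjusted p 0.0103) and Tmem81 at -0.36 (edgeR adjusted p 0.00359), and both passed without the low-count filter (edgeR adjusted p 0.0389 and 0.0319). Tmem95 and Tmem81 were named with their values known.

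The list of acrosome biogenesis and matrix had 26 genes, none past the threshold with all 6 libraries, 17 below 0 and a median of -0.04. Its largest values at moderate or high level went opposite ways, with Ggn, the gene of gametogenetin, at 0.38 (edgeR adjusted p 0.207) and Eqtn, the gene of the acrosomal membrane protein equatorin, at -0.17 (edgeR adjusted p 0.301). Ggn had 486, 457 and 424 CPM in WLA/WLA testis, against 430, 283 and 338 CPM in WLA/+ testis, where the spread was wide and the highest library was WLA/+ library 1. Without that library Ggn passed at 0.55 (edgeR adjusted p 0.00038) and Eqtn at -0.25 (edgeR adjusted p 0.00537). Ggn also passed without the low-count filter (edgeR adjusted p 7.47e-12). There its log2 fold change stayed at 0.38 while its SE fell from 0.114 to 0.048. This smaller p-value likewise did not come from a larger difference, and the part of the smaller SE in it was not tested. The groups of Ggn overlapped. The 7 genes for maturation of sperm surface proteins had a median of -0.04 and 5 below 0, none past the threshold with all 6 libraries. Among them Pdilt, a chaperone of the testis, stood at -0.16 (edgeR adjusted p 0.226) and Lypd4 at -0.13 (edgeR adjusted p 0.3198). Pdilt passed without WLA/+ library 1 (-0.20, edgeR adjusted p 0.0249).

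**Figure D4:**
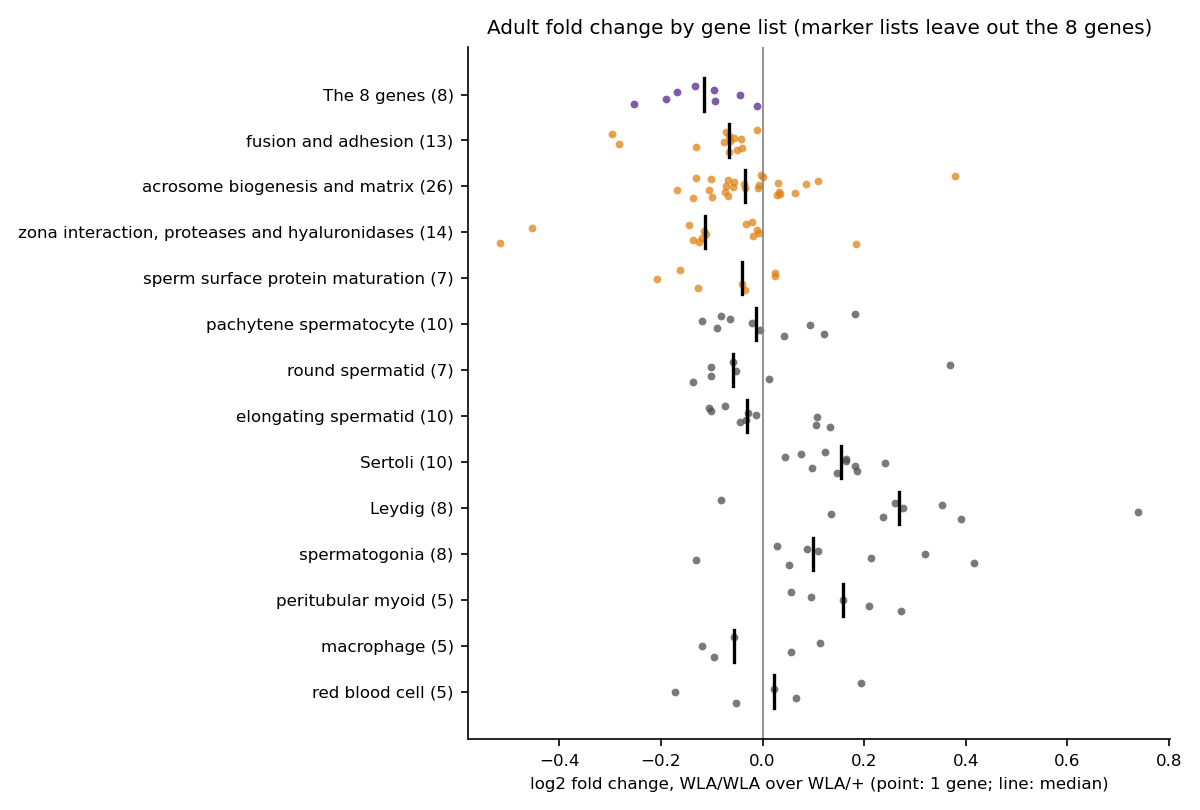
Log2 fold change (horizontal axis, WLA/WLA over WLA/+) in adult testis by gene list, 1 point for each gene tested and a black line at the median; purple is the 8 genes, orange the other acrosome and fertilisation lists, and grey the cell type marker lists without the 8 genes. The medians are -0.11 for the 8 genes, 0.15 for Sertoli and 0.27 for Leydig markers.

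Of 69 cell type markers tested besides the 8 genes, germ cell markers included, none passed an adjusted p of 0.05 (edgeR). All 10 Sertoli markers lay above 0, with a median of 0.15, and their summed level was 1196 to 1228 CPM in WLA/WLA testis, against 1047 to 1256 CPM in WLA/+ testis. The highest of these sums, 1256 CPM, was that of WLA/+ library 1, the WLA/+ library with the lowest summed level of the 8 genes. Leydig markers had a median of 0.27 with 1 of 8 below 0, and sums of 551 to 632 CPM in WLA/WLA testis, against 357 to 582 CPM in WLA/+ testis. The Sertoli sums of the groups overlapped, and so did the Leydig sums. Peritubular myoid markers had a median of 0.16 (0 of 5 below 0). The myoid sums did not overlap, with 70.1 to 75.7 CPM in WLA/WLA, against 60.6 to 68.7 CPM in WLA/+ testis. The part of these cell types in the result was not tested.

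Germ cell markers did not all lie on the side of the 8 genes. Spermatogonial markers had a median of 0.10, with 1 of 8 below 0 and sums of 100.2 to 108 CPM in WLA/WLA, against 90.9 to 107.9 CPM in WLA/+ testis. Pachytene spermatocyte markers had a median of -0.01 with 6 of 10 below 0, and elongating spermatid markers one of -0.03 with 7 of 10 below 0. Round spermatid markers other than members of the group had a median of -0.06 with 5 of 7 below 0. Their sums overlapped, with 1394 to 1478 CPM in WLA/WLA, against 1392 to 1525 CPM in WLA/+ testis. The pachytene and the elongating spermatid sums of the groups overlapped as well. Macrophage markers had a median of -0.06 (3 of 5 below 0), and red blood cell markers one of 0.02 (2 of 5 below 0). The macrophage sums were 32.0 to 42.6 CPM in WLA/WLA testis. In WLA/+ libraries 1, 2 and 3 they were 60.5, 29.8 and 23.3 CPM, with library 1 the highest of all. Of 6 epididymal genes 5 were too low to be tested, and the sixth, Rnase10, stood at 4.73 to 5.33 CPM in WLA/WLA, against 3.90 to 5.16 CPM in WLA/+ testis.

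Averaged over the 8 genes after centring each on its own mean, the profile stood at -0.06, -0.05 and -0.07 log2 units in WLA/WLA libraries, against -0.01, 0.08 and 0.11 in WLA/+ libraries. By root mean square distance over the 6 libraries, the named genes nearest to this profile were Bpgm (0.0096 log2 units), Kcnu1 (0.015), Pde1a (0.016), Ttc39a (0.016) and Dnajc18 (0.017), out of 1996 candidates in the same range of levels. Bpgm encodes bisphosphoglycerate mutase and Kcnu1 the sperm potassium channel SLO3. Kcnu1 had 129.0, 130.4 and 126 CPM in WLA/WLA testis, against 134.5, 143 and 143.6 CPM in WLA/+ testis (edgeR adjusted p 0.267). The distance is a description, since 6 libraries offer many genes of like profile.

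The juvenile comparison asks how testis without Ythdc2 differs while the first germ cells approach meiosis, before spermatids exist. Zpbp, Zpbp2, Spaca1 and Izumo1 were listed at both ages in the authors' deposited tables; Acr, Acrv1, Spam1 and Zp3r were listed at neither. None of the 4 listed genes passed an adjusted p of 0.05 or 0.15 in total RNA or in footprints (anota2seq, the authors' deposited tables). In total RNA 0.0528% of 15145 genes passed 0.05 at day 8 and 0.0% of 14846 at day 10; in footprints 0.0% passed at either age. At 0.15 the share in total RNA was 0.132% for day 8 and 1.33% for day 10, and the share in footprints 0.0% and 0.0269%. Zpbp at day 10 was the exception in translation, the footprint change left after regression on total RNA. The tables give no values per animal, so neither levels nor spread can be given, and effects are read as log2.

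Zpbp had a day 10 translation effect of 0.70 with an adjusted p of 0.0183 in the authors' deposited table, and the authors placed it in their class of translationally changed genes, which holds 53 genes, or 0.357%. At an adjusted p of 0.05, 2.68% of all genes passed for translation. Its total RNA effect was -0.15, further from 0 than in 97.4% of genes, with an adjusted p of 0.162, and its footprint effect 0.15 with an adjusted p of 0.948 in the authors' deposited table. The difference of footprint and total RNA effects was 0.30. The regression behind the translation effect has a slope of 3.62 when worked back from these values, and a slope of 1 would give the difference itself. At day 8 Zpbp had a total RNA effect of -0.00050, a footprint effect of -0.14 and a translation effect of -0.14 (adjusted p 0.620) in the authors' deposited table, so the sign of its footprint and translation effects was the opposite at the earlier age; the difference between ages was not tested.

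In buffering, the total RNA change left after regression on footprints, Zpbp stood at -0.20 at day 8 (adjusted p 0.109) and -0.19 at day 10 (adjusted p 0.0777) in the authors' deposited tables. At 0.15 buffering passed for 3.45% of all genes at day 8 and 4.72% at day 10, and at 0.05 for 1.49% and 1.37%; the other 3 genes passed at neither age.

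Izumo1 had total RNA effects of 0.06 at day 8 and -0.07 at day 10 in the authors' deposited tables, and footprint effects of -0.08 and 0.03. Spaca1 stood at 0.01 and 0.07 in total RNA and at 0.15 and 0.04 in footprints there. Its translation effect was 0.18 at day 8 and -0.34 at day 10 (adjusted p 0.495 and 0.161) in the authors' deposited tables. Zpbp2 stood at -0.04 and -0.01 in total RNA and at -0.03 and -0.14 in footprints there. In total RNA the middle 95% of all genes ran from -0.11 to 0.11 at day 8 and from -0.12 to 0.11 at day 10, and of these 4 genes Zpbp at day 10 alone lay outside. In footprints it ran from -0.20 to 0.20 at day 8 and from -0.23 to 0.21 at day 10, and all 4 genes lay inside at both ages.

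**Figure D5:**
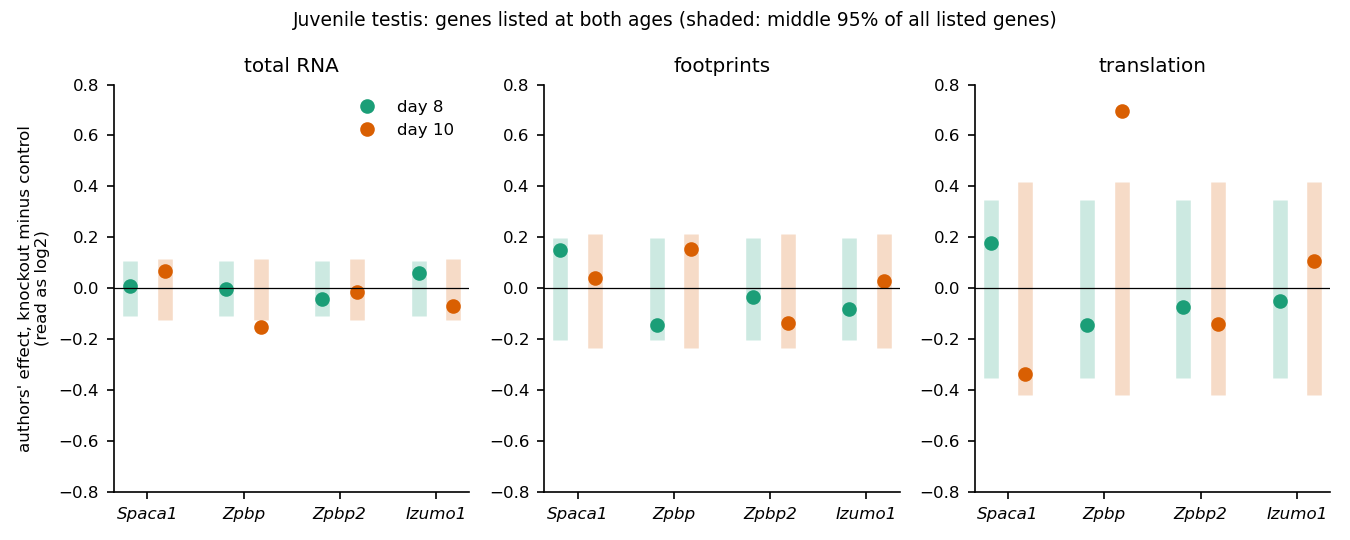
Authors' effects (vertical axis, knockout minus control, read as log2) of the 4 listed genes in total RNA, footprints and translation at day 8 and day 10; points are genes and shaded bars the middle 95% of all listed genes. Zpbp at day 10 lies at -0.15 in total RNA and 0.70 in translation, outside both bars.

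Of the other acrosome and fertilisation genes 19 were listed at day 8 and 21 at day 10. None passed 0.05 in total RNA or footprints at either age in the authors' deposited tables (anota2seq), and their median total RNA effects were 0.01 at day 8 and -0.02 at day 10, against -0.0024 and 0.00058 over all genes. In translation 2 of 19 passed at day 8, against 1.33% of all genes. These were Pkdrej at -0.95 (adjusted p 0.0124) and Adam1a, a gene of the ADAM family, at -0.83 (adjusted p 0.0150) in the authors' deposited table. Their footprint effects there were 0.07 and -0.10, and their total RNA effects 0.09 and 0.07. Both translation effects were thus much further from 0 than either measured change, and they rest on the slope of the regression, as for Zpbp. In buffering 1 of 21 passed at day 10, against 1.37% of all genes. This was Dpy19l2, which anchors the acrosome to the nucleus, at 0.30 (adjusted p 0.0364) in the authors' deposited table. At day 8 its buffering effect there had the opposite sign, at -0.23 (adjusted p 0.0794).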

How the data were processed

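The report uses 6 adult RNA libraries and the authors' comparisons of 24 juvenile libraries. STAR, mm10 and DESeq2 are named in the submitters' processing notes. Per the labels' protocols, RNA was isolated with Trizol and went through rRNA depletion or poly(A) selection. For the adult libraries the authors deposited raw counts, log2 fold changes, p-values, Wald scores and mean signal per feature; scores and signal were not used. For the juvenile libraries the authors deposited log2 effects (base not stated, read as log2) and adjusted p-values from anota2seq 1.14.0.

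Adult counts were filtered with filterByExpr, scaled by TMM and fitted by genotype with edgeR 4.0.16 (quasi-likelihood, R 4.3.3) over 22446 features. P-values were adjusted by the Benjamini-Hochberg method over all of them, with calls at 0.05, and the biological coefficient of variation was 6.77%. The fit was checked on simulated counts. Standard errors came from the F statistic and 95% intervals from its t distribution. DESeq2 1.42.0 was an alternative. Adult columns name genotype and a number, used here for libraries, but not the animal, so age was no covariate; the labels number animals, and libraries were taken as separate animals. Every pair of libraries of a group differed by more than sampling noise. Transcript lengths were not used here, so the planned levels per length were not made.

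Named genes were the 8 genes, other listed genes past 0.05, the 2 largest absolute log2 fold changes of each list among the upper 2 of every 3 genes by level, and the 5 genes nearest in profile. Other genes were picked with their values known. The genes and lists were chosen with earlier results of these data known. The alternatives were other scaling, no low-count filter, DESeq2, no piRNA clusters, protein-coding genes only and single libraries left out.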

Additional observations from a re-analysis of the deposited data

How the results depend on the processing

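Of 96 values (8 adult fold changes under 12 alternatives), 87 kept their direction and side of the threshold, 7 kept their direction and passed it, and 2 changed sign. Both were Acr, which over single omissions ran from -0.053 to 0.024. With all 6 libraries, edgeR called 0 of the 8 genes under TMM, RLE, unscaled totals, without piRNA clusters and on protein-coding genes only, the last chosen after seeing the data; 4 had an unadjusted p under 0.05. Without the low-count filter 2 of the 8 genes passed (Zp3r and Izumo1), 6 of the other listed genes and 595 of all features, and with DESeq2 1 of the 8 (Izumo1) and 218 of all features, in place of 53. Omitting 1 library at a time gave 0 to 4 of the 8, 0 to 12 of the others and 3 to 1917 of all features; the high ends were all without WLA/+ library 1. The causes were not tested. In juvenile tables, 1 gene of the 4 passed 0.15 in buffering at each age, Zpbp, against 3.45% of all genes at day 8 and 4.72% at day 10. No paired analysis was possible because the adult columns name no animal and the juvenile tables hold no values per animal. Levels per length and an age term were not run. Counting error of the 8 genes was 0.98% to 1.81% a library and their relative SD among WLA/+ libraries 2.19% to 9.84%.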

Other observations

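The 3 WLA/WLA libraries were closer to each other in the levels of Acr and Zpbp than the counting error of these genes. Their coefficient of variation was 0.14% for Acr and 0.19% for Zpbp, where the mean counts of 8329 and 8299 reads give a counting error of 1.10% for each gene. In WLA/+ libraries it was 5.37% for Acr and 3.68% for Zpbp. For the others of the 8 genes the coefficient of variation in WLA/WLA libraries lay above the counting error. It went from 1.96% for Acrv1 (counting error 1.11%) to 2.59% for Spam1 (counting error 1.81%). Of the 8 genes 7 had a wider relative spread in WLA/+ than in WLA/WLA libraries, the exception being Zpbp2 with 2.48% in WLA/WLA and 2.19% in WLA/+ libraries. The share of all features with a wider spread in WLA/+ libraries was not computed. Nor was the share with a WLA/WLA spread below the counting error, so how unusual Acr and Zpbp are in this is not known. Over all features, pairs of WLA/+ libraries differed by a chi-square of 6.35 to 10.0 per degree of freedom, against 1.79 to 3.98 for WLA/WLA pairs. The wider spread is therefore not particular to the 8 genes.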
